A study of Mus musculus with 6 samples.

Results

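A set of 10 genes that carry long-chain fatty acids from the capillary to the mitochondria of muscle was examined in mouse soleus, a postural calf muscle. The set was chosen by gene symbol: Lpl, Cd36, Slc27a1 and Fabp3 for release, uptake and binding, Acsl1 for activation, Cpt1b and Cpt2 for the carnitine shuttle, Acacb and Mlycd for malonyl-CoA, and the uncoupling protein gene Ucp3. Of the 10 genes, 8 were measured, among 19938 genes in all. The transcript cluster (the probe group that reads 1 transcript) of Cpt1b is listed for Cpt1b together with Gm44502, a transcript that runs across Chkb and Cpt1b, and it is reported under neither name. Acsl1 was not analysed here. Fabp3 had a pair of clusters, and the brighter was used.

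RNA was hybridized to Affymetrix ST arrays in 3 groups of 2: hindlimb suspension with electroacupuncture (HS+EA), hindlimb suspension alone (HS), and control. In suspension the hind limbs are lifted so that they bear no weight, and in electroacupuncture a current is passed through acupuncture needles. The strain was C57BL/6, and the mice of all 3 groups were males aged 8 weeks. The sources used here give neither the length of suspension nor the needle points, and they do not say whether duplicates are different mice, so the p-values measure the spread between arrays, which may be technical. Values are log2 signals, so that a difference of 1 is a doubling, and the number of arrays limits their precision. In whole muscle, fewer cells of a type and less RNA per cell cannot be told apart.

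Lipoprotein lipase frees fatty acids from circulating triglyceride on the capillary wall, and CD36 and the transport protein FATP1 (Slc27a1) help them across the membrane. In the fibre they are bound by FABP3, joined to coenzyme A by long-chain acyl-CoA synthetases, and passed into the mitochondrion as carnitine esters by CPT1 and CPT2. Malonyl-CoA, made by ACC2 (Acacb) and broken down by malonyl-CoA decarboxylase (Mlycd), blocks CPT1. Slow, oxidative muscle such as soleus relies on this route, and many of its genes are induced by PPAR receptors.

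All 5 general muscle fibre markers (Acta1, Ckm, Mb, Des and Myod1) lay above background, taken as the 95th percentile of 1027 olfactory receptor genes (3.50), with mean signals of 11.61 on both HS+EA arrays, 11.71 and 11.69 on the HS arrays and 11.35 and 11.46 on the control arrays. All 8 measured fatty acid genes were above it too. The control arrays differed from each other in these genes: all 8 were higher on control array 2 than on array 1. That held for 48.1% of all genes and for 58.3% of those above background. On HS array 2, 2 of 8 were higher than on array 1, against 42.7% of genes above background. On HS+EA array 2 it was 6 of 8, against 47.5%. Adipocyte markers, 8 of 10 measured and all 8 above background, averaged 5.89 and 5.74 on HS+EA arrays 1 and 2, 5.43 and 5.19 on the HS arrays, and 5.22 and 6.81 on the control arrays. Adipocytes also express Lpl, Cd36 and Fabp4, and the part of these markers in the differences below was not tested.

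**Figure D1:**
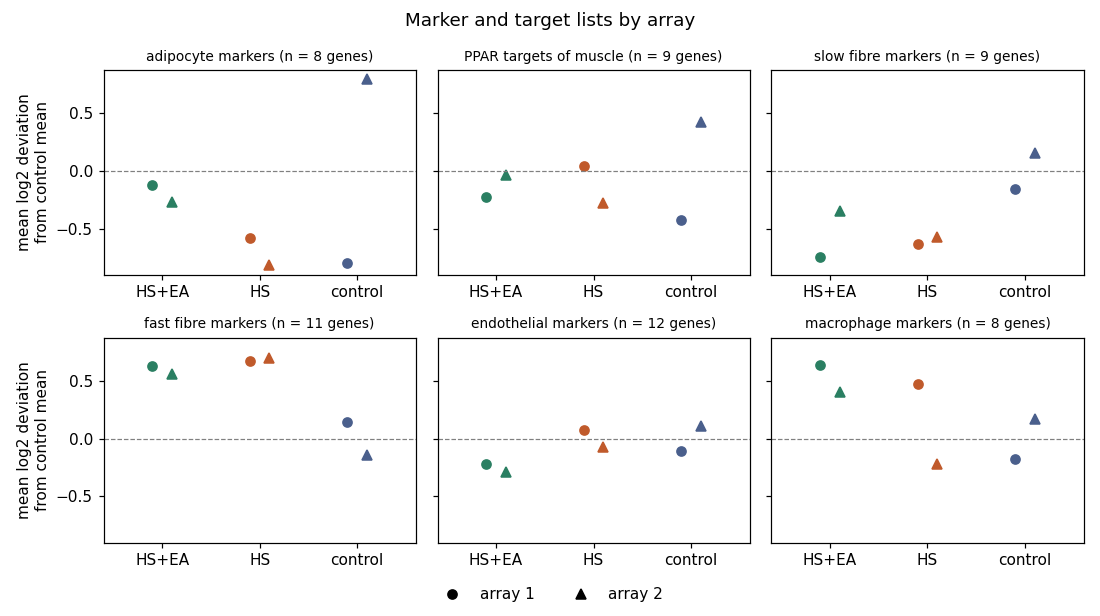
Mean log2 deviation from the control mean (y axis) of 6 gene lists on each array, with groups from left to right HS+EA, HS and control, circles for array 1 and triangles for array 2. The control arrays stand at -0.79 and 0.79 for adipocyte markers and at -0.42 and 0.42 for PPAR targets.

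The comparison of HS with control asked how unloading changed the muscle. Fabp3 fell in HS soleus, and none of the other 7 measured genes passed adjusted p under 0.05. That is 1 of 8, against 0.512% of all genes called lower and 1.05% called in either direction. The differences of 7 of the 8 were below 0, against 48.9% of all genes, with a median of -0.19 against 0.01 over all genes. Without control array 2 it was 4 of 8 with a median of -0.04, without HS array 2 it was 5 of 8 with a median of -0.16, and without control array 1 it was 7 of 8 with a median of -0.43. In 3 of 8 (Fabp3, Mlycd and Lpl) each HS array lay below each control array, against 18.5% of all genes. The members were chosen with such results known, so these shares are descriptions.

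**Figure D2:**
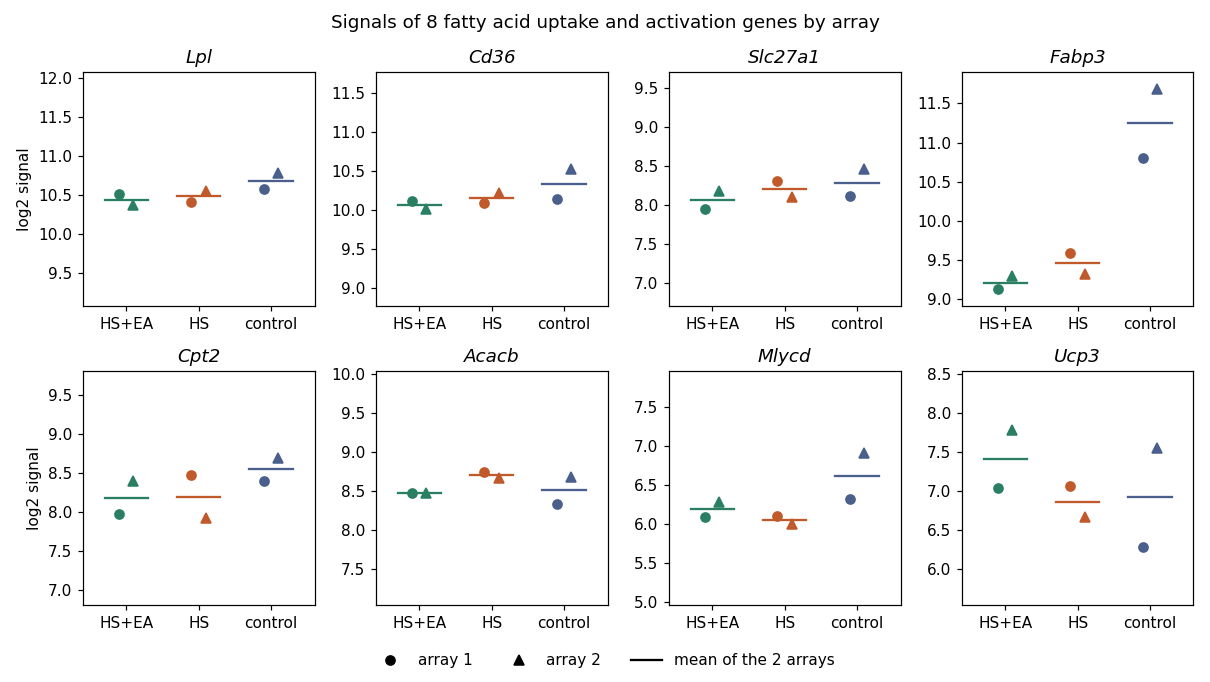
Log2 signals of the 8 measured genes on each array (y axes span the same 3 log2 units), with groups from left to right HS+EA, HS and control. Circles are array 1, triangles array 2 and lines the mean of the 2; the control arrays of Fabp3 lie at 10.80 and 11.69, above the 4 suspended arrays at 9.12 to 9.59.

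Fabp3, which encodes the fatty acid binding protein of heart and muscle fibres, had signals of 9.59 and 9.32 on HS arrays 1 and 2, against 10.80 and 11.69 on control arrays 1 and 2. The groups did not overlap, and the lowest control array was more than 1 log2 unit above the highest HS array. The mean fell to 9.46 ± 0.19 in HS, against 11.24 ± 0.63 in control (SD, n = 2 each), a log2 difference of -1.79 ± 0.25 (SE), or 3.46-fold lower (limma, adjusted p = 0.0189). Fabp3 stood 12th from the lowest of 19938 log2 differences. Its control arrays were 0.89 apart, more than those of 98.0% of genes. The difference was -2.23 without control array 1 (adjusted p = 0.00314) and -1.35 without control array 2 (adjusted p = 0.0200). It did not pass without HS array 1 (-1.92, adjusted p = 0.0953), without HS array 2 (-1.66, adjusted p = 0.129), without HS+EA array 1 or 2 (adjusted p = 0.0529 and 0.0530), with only HS and control fitted (0.0523), or with every cluster tested by itself (0.160), a fit that also takes in clusters with several symbols or none. With single-symbol clusters tested by themselves it did (0.0220).

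The second Fabp3 cluster gave 9.08 and 8.92 on the HS arrays, against 10.30 and 11.27 on the control arrays. Its difference of -1.78 was called as well (adjusted p = 0.0228). Both clusters are listed under the same Fabp3 transcript, and RefSeq also holds a pseudogene, Fabp3-ps1, so which locus each cluster reads was not established. Fibre-type markers moved beside Fabp3. The 9 slow-fibre markers averaged 10.60 and 10.66 on the HS arrays, against 11.08 and 11.39 on the control arrays, and the 11 fast-fibre markers averaged 11.70 and 11.73 on the HS arrays, against 11.18 and 10.89 on the control arrays. Of the slow list 8 of 9 lay below 0 in HS minus control, against 48.9% of all genes. The slow myosin gene Myh7 had 11.68 on both HS arrays, between the control arrays at 11.62 and 12.02, and Atp2a2 lay above 0 (0.10). By adjusted p, 1 of the slow list fell, Casq2 (log2 difference -1.27). Of the fast list 4 rose, among them Actn3 (2.28), while 1 fell, Myh2 (3.99-fold lower), the myosin of oxidative fast fibres. Without HS array 1 none of these 3 passed (adjusted p = 0.0620 for Casq2 and Actn3 and 0.127 for Myh2), and Myh2 also did not without HS array 2 (0.124) or control array 2 (0.0563). In the fit over every cluster none of the 3 passed (0.110 to 0.160). The part of fibre type in the fall of Fabp3 was not tested.

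The 250 bases before the RefSeq start of Fabp3 (GRCm38.p6, chr4:130308488-130308737, plus strand) are shown because this was the gene that passed. Capitals mark CATGTG, an E-box (CANNTG), and TATTTAA, an AT-rich run 29 to 23 bases before the start that was looked for after the sequence had been read.
Fabp3: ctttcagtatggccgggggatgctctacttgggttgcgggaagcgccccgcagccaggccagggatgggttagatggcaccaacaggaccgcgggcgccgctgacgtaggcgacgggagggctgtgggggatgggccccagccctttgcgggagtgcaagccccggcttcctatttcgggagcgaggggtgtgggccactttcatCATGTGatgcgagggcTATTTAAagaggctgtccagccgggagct
An E-box was present in 66.2% of the 32851 windows of the same length in the RefSeq table, and TATTTAA in 4.18%, both strands counted. The window held no match to AGGTCA, the core hexamer bound by nuclear receptors (14% of windows), to AGGNCA repeated after 1 base, the kind of element that PPAR receptors bind (0.338%), or to the MEF2 consensus (2.92%).

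Genes of release and uptake lay close to control. Lpl, the lipase, had 10.42 and 10.55 on HS arrays, against 10.58 and 10.79 on control arrays. The groups did not overlap, though HS array 2 and control array 1 were nearly equal, and the difference of -0.20 ± 0.14 (95% interval -0.51 to 0.12, adjusted p = 0.626) did not pass. It was -0.31 without control array 1 and -0.09 without control array 2. Cd36, the main fatty acid translocase of muscle, had 10.09 and 10.22 on HS arrays, against 10.14 and 10.53 on control arrays. Its groups overlapped, and its difference was -0.18 ± 0.16 (95% interval -0.54 to 0.17, adjusted p = 0.714), or 0.01 without control array 2. Slc27a1 had 8.31 and 8.10 on HS arrays, against 8.11 and 8.46 on control arrays, again overlapping. Its difference was -0.09 ± 0.16 (95% interval -0.45 to 0.28, adjusted p = 0.886), or 0.09 without control array 2 and 0.02 without HS array 2. These 3 intervals reach from a fall of 0.54 to a rise of 0.28 on the log2 scale and leave out a change as large as that of Fabp3.

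In the carnitine shuttle, Cpt2, the inner-membrane transferase, had 8.47 and 7.92 on HS arrays, against 8.40 and 8.68 on control arrays. HS array 1 lay between the control arrays and HS array 2 below both, and the difference was -0.35 ± 0.21 (adjusted p = 0.568). It was -0.07 without HS array 2 and -0.62 without HS array 1.

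The malonyl-CoA genes lay on opposite sides of 0. Acacb, which makes the malonyl-CoA that restrains CPT1, had 8.74 and 8.66 on HS arrays, against 8.33 and 8.68 on control arrays. Its groups overlapped, with a difference of 0.19 ± 0.15 (adjusted p = 0.661), the only one of the 8 above 0, and 0.02 without control array 1. Mlycd, which removes malonyl-CoA, had 6.10 and 6.00 on HS arrays, against 6.32 and 6.91 on control arrays. The groups did not overlap, and the difference of -0.56 ± 0.20 was the second largest of the 8 in size, with 2.75% of all genes lower. It had an unadjusted p = 0.0188 in limma, as 12.7% of all genes had one under 0.05, and did not pass after adjustment (adjusted p = 0.262). It was -0.86 without control array 1 (adjusted p = 0.0561) and -0.26 without control array 2 (adjusted p = 0.428).

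Ucp3, a mitochondrial carrier that rises when fibres burn more fatty acid, varied most of the 8 between the control arrays. It had 7.06 and 6.66 on HS arrays, against 6.28 and 7.55 on control arrays, so that both HS arrays lay between the control arrays. The control arrays were 1.26 apart, more than those of 99.6% of genes. The difference of -0.06 ± 0.38 (95% interval -0.92 to 0.81, adjusted p = 0.975) turned to 0.58 without control array 2 (adjusted p = 0.365) and to 0.14 without HS array 2, and was -0.69 without control array 1 (adjusted p = 0.375).

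**Figure D3:**
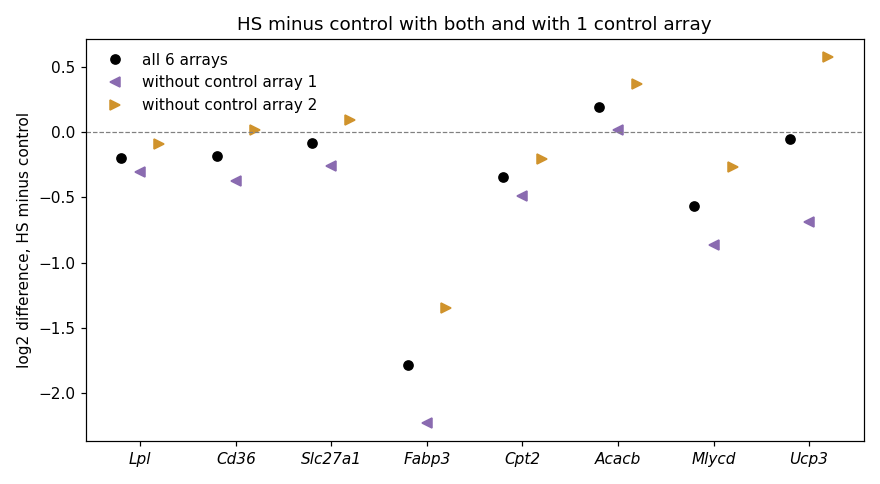
Log2 difference of HS minus control for the 8 genes (y axis) with all 6 arrays (circles), without control array 1 (left-pointing triangles) and without control array 2 (right-pointing triangles). Fabp3 ran from -2.23 to -1.35, while Cd36, Slc27a1 and Ucp3 lay on both sides of 0.

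The windows before a RefSeq start of Mlycd (chr8:119394644-119394893, plus strand) and of Ucp3 (chr7:100472741-100472990, plus strand), both GRCm38.p6, are shown as those of the genes with the second largest difference and the widest control spread. In RefSeq the Mlycd gene begins at 119394852, inside this window, so the end of the Mlycd window lies within the gene. Capitals mark CCAAT, read on either strand, in Mlycd, and AGGTCA in Ucp3.
Mlycd: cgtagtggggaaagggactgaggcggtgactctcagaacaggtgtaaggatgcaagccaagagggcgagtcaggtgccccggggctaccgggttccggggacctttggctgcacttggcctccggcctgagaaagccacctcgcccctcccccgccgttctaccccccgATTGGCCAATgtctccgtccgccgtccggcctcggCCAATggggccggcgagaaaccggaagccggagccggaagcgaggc
Ucp3: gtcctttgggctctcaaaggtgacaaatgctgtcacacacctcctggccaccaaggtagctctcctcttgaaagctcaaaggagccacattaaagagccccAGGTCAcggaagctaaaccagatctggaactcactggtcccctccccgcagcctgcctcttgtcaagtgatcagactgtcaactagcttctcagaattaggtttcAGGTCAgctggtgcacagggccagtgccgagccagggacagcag
Mlycd held 3 CCAAT matches, 1 of them on the opposite strand, and 33.8% of all windows held at least 1. Ucp3 held AGGTCA at 149 to 144 and at 44 to 39 bases before the start, the second overlapping an E-box (CAGCTG) by 2 bases. Of the 8 genes of the set with a window in the table, Cd36 also held AGGTCA, on the opposite strand, and no window of the set held the direct repeat. Lpl and Cpt1b had no window there. These matches describe letters in a window and not bound sites.

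The comparison of HS+EA with HS asked what electroacupuncture added in unloaded muscle. None of the 8 genes passed, as none of the 19938 did (0.00% in limma, with 3.07% of all genes and 0 of the 8 at an unadjusted p under 0.05). Their median difference was -0.07, against -0.01 over all genes, and 6 of 8 were below 0, against 51.6% of all genes. Without HS array 2 or HS+EA array 2 the median was -0.14 or -0.13, with 5 of 8 below 0. Fabp3 had 9.12 and 9.29 on HS+EA arrays, against 9.59 and 9.32 on HS arrays. All 4 of these arrays lay more than 1 log2 unit below the lower control array, and the HS+EA arrays were just below the HS arrays. The difference was -0.25 ± 0.25 (95% interval -0.82 to 0.32, adjusted p = 1.00). The upper end of that interval, a rise of 0.32, is short of the 1.79 by which Fabp3 fell in HS.

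**Figure D4:**
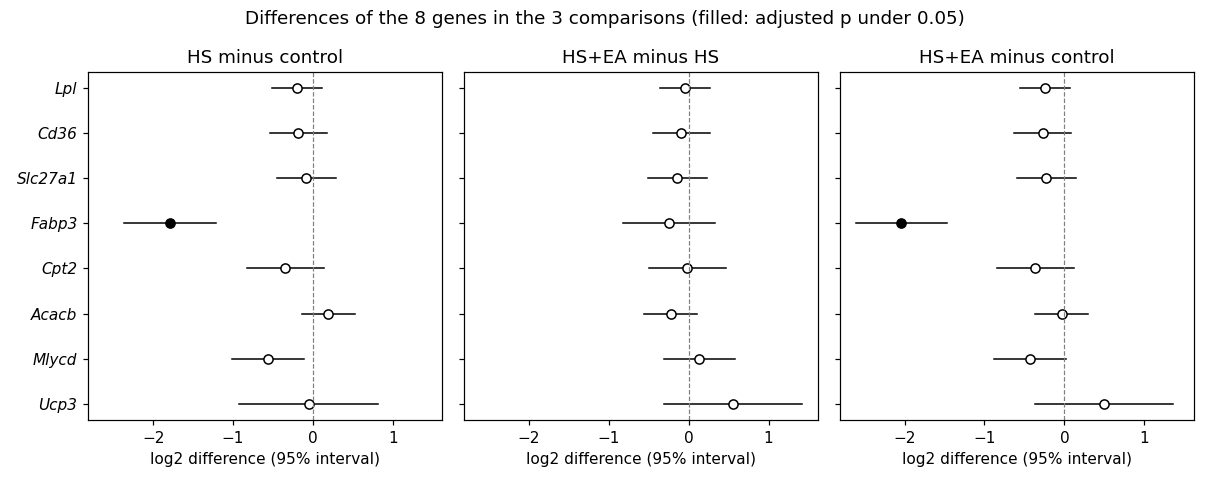
Log2 differences of the 8 genes (rows) in the 3 comparisons, each with its 95% interval from limma. Filled points passed adjusted p under 0.05: Fabp3 in HS minus control (-1.79) and in HS+EA minus control (-2.04).

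Ucp3 had 7.03 and 7.78 on HS+EA arrays, against 7.06 and 6.66 on HS arrays. Only HS+EA array 2 stood above the HS arrays, and the difference of 0.55 ± 0.38 (95% interval -0.32 to 1.41, adjusted p = 1.00) had 99.1% of all genes below it. It was 0.17 without HS+EA array 2 and 0.93 without HS+EA array 1. Acacb had 8.47 and 8.48 on HS+EA arrays, against 8.74 and 8.66 on HS arrays, without overlap. Its difference of -0.23 ± 0.15 did not pass either. Groups without overlap and lower in HS+EA were found for 2 of 8 genes, Fabp3 and Acacb, and for 17.1% of all genes. Mlycd (0.13), Lpl (-0.04), Cd36 (-0.09), Slc27a1 (-0.14) and Cpt2 (-0.02) differed by less than their standard errors of 0.14 to 0.21. These values were small, and their intervals ran from a fall of 0.51 to a rise of 0.58.

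The comparison of HS+EA with control shares its control arrays with that of HS with control, so it adds no independent support. Fabp3 fell here too, to 9.21 ± 0.12 in HS+EA, against 11.24 ± 0.63 in control (SD, n = 2 each). The difference was -2.04 ± 0.25, or 4.11-fold lower (limma, adjusted p = 0.0111), which was 7th from the lowest of all genes. It was -2.48 without control array 1 and -1.60 without control array 2, and did not pass without HS+EA array 1 (adjusted p = 0.141), without HS+EA array 2 (0.0967) or with every cluster tested by itself (0.137). That made 1 of 8 genes, against 0.587% of all genes called lower and 1.03% called in either direction. At an unadjusted p under 0.05 it was also 1 of 8, against 12.8% of all genes. The median of the 8 was -0.26, against 0.01 over all genes, and 7 of 8 were below 0, against 49.0% of all genes. The median was -0.10 without control array 2 (6 of 8 below 0) and -0.44 without control array 1 (8 of 8).

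Groups did not overlap and lay lower in HS+EA for 5 of 8 genes, Fabp3, Mlycd, Cpt2, Cd36 and Lpl, against 20.0% of all genes. Mlycd averaged 6.18 ± 0.13 in HS+EA and 6.61 ± 0.42 in control (SD, n = 2 each), a difference of -0.43 ± 0.20 (adjusted p = 0.413), or -0.73 without control array 1 and -0.13 without control array 2. The differences of Cpt2 (-0.36, adjusted p = 0.560), Cd36 (-0.27), Lpl (-0.24) and Slc27a1 (-0.23) did not pass, and that of Acacb was -0.03. Without 1 array Cpt2 ran from -0.57 (HS+EA array 2 left out) to -0.15 (HS+EA array 1), and without control array 1 or 2 Cd36 was at -0.47 or -0.08, Lpl at -0.35 or -0.14 and Slc27a1 at -0.40 or -0.05. Ucp3 differed by 0.49 ± 0.38 (adjusted p = 0.688), by 1.12 without control array 2 and by -0.14 without control array 1. Endothelial markers, 12 measured and all above background, averaged 6.90 and 6.83 on HS+EA arrays, 7.19 and 7.04 on HS arrays, and 7.01 and 7.23 on control arrays. Of these 12, 11 were below 0 in HS+EA minus HS, and 1, the VEGF receptor gene Kdr, fell in HS+EA minus control (-1.28, adjusted p = 0.0135), though not without HS+EA array 1 (0.0708) or 2 (0.143), or in the fit over every cluster (0.137). Over all genes 51.6% were below 0 in HS+EA minus HS. All 8 macrophage markers were above 0 in HS+EA minus HS, with means of 6.02 and 5.79 on HS+EA arrays and 5.86 and 5.17 on HS arrays, and none passed. HS array 1 thus lay above HS+EA array 2, and 0 of the 8 were higher on HS array 2 than on HS array 1 (median difference -0.83). The 8 adipocyte markers were all above 0 in HS+EA minus HS as well, with a median of 0.53 and none called, and all below 0 in HS minus control, with a median of -0.75 and none called. Their mean deviation from the control mean was -0.58 and -0.82 on the HS arrays, near control array 1 (-0.79). The list mean below 0 in HS minus control thus rests largely on control array 2 (0.79). That did not hold for every marker. In 2 of the 8, both HS arrays lay below both control arrays, against 18.5% of all genes. Pck1 had 4.17 and 4.26 on HS arrays, against 4.50 and 5.76 on control arrays. Slc7a10 had 4.81 and 4.93, against 5.07 and 5.93. Capillary endothelium is a main site of Cd36 and holds Lpl, and the part of these markers was not tested.

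The rest of the route was read from lists written from general knowledge. Beside the counts below, 1.05% of all genes were called in HS minus control, and 0.512% were called lower. Around the lipase, none of 7 partners passed in HS minus control (median 0.06). Gpihbp1, the capillary anchor of the lipase, had 6.25 and 6.16 on HS arrays, against 6.60 and 6.97 on control arrays, without overlap (log2 difference -0.58 ± 0.16, adjusted p = 0.155). Vldlr, a lipoprotein receptor, differed by 0.46 (adjusted p = 0.235, and 0.29 without control array 2), and Angptl4, an inhibitor of the lipase, by 0.19 ± 0.46, and by -0.66 without control array 1. None of 14 relatives in uptake and binding passed (median -0.11). Among them the acyl-CoA binding protein gene Dbi differed by -0.54 (adjusted p = 0.145), muscle caveolin Cav3 by 0.36 and Fabp4, the binding protein of fat cells and endothelium, by -0.43. The value of Fabp4 was -0.85 without control array 1 (adjusted p = 0.0256) and -0.01 without control array 2.

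Among 14 acyl-CoA synthetases and thioesterases, 1 rose in HS. Acsl4, a synthetase that prefers arachidonic acid, had 6.52 and 6.62 on HS arrays, against 5.84 and 5.83 on control arrays. The groups were well apart, with a difference of 0.74 ± 0.13 (adjusted p = 0.0427), while the list had a median of -0.05. In the carnitine system none of 9 passed (median -0.23). The organic cation transporter gene Slc22a4 (-0.62, adjusted p = 0.138) and the carnitine transporter gene Slc22a5 (-0.43) lay below 0. So did the differences of the liver-type transferase gene Cpt1a (-0.63 ± 0.33, adjusted p = 0.500) and the carnitine-acylcarnitine carrier gene Slc25a20 (-0.23). That of Slc25a20 was 0.02 without control array 2. Cpt1a was at -1.15 without control array 1, -0.10 without control array 2, -1.01 without HS array 1 and -0.25 without HS array 2, and Slc22a5 at -0.27 without HS array 2.

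Of 13 genes of malonyl-CoA and of AMPK, the kinase that switches ACC2 off, 1 rose. Prkag3, the AMPK subunit of fast glycolytic fibres, had 6.86 and 6.92 on HS arrays, against 5.74 and 5.24 on control arrays, a difference of 1.40 ± 0.19 (adjusted p = 0.0174), beside a median of 0.21 for the list. Acaca, the lipogenic partner of Acacb, differed by -0.17, and by 0.05 without control array 2. Of 15 PPAR and PGC-1 regulators 2 fell and the median was -0.22. Ppara had 6.30 and 6.36 on HS arrays, against 7.23 and 7.70 on control arrays (-1.14 ± 0.17, adjusted p = 0.0234), and the coactivator gene Ppargc1a had 7.50 and 7.65, against 8.79 and 9.49 (-1.56 ± 0.22, adjusted p = 0.0189). Ppard, the PPAR most abundant in muscle, differed by 0.17, by 0.31 without control array 1 and by 0.04 without control array 2. None of the 9 measured genes listed as PPAR targets passed (median -0.23). This list leaves out the 10 genes and the beta-oxidation enzymes, which are given below. Values were -0.31 ± 0.49 for Pdk4, which restrains glucose oxidation, -0.47 for the lipid droplet coat gene Plin2, -0.56 for the thioesterase gene Acot2 and 0.57 for Cyp4b1. Pdk4 was at 0.51 without control array 2, Plin2 at -0.15 without HS array 2 and -0.79 without HS array 1, Cyp4b1 at 0.37 without control array 1, and Acot2 at -0.95 (adjusted p = 0.0481) without control array 1.

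**Figure D5:**
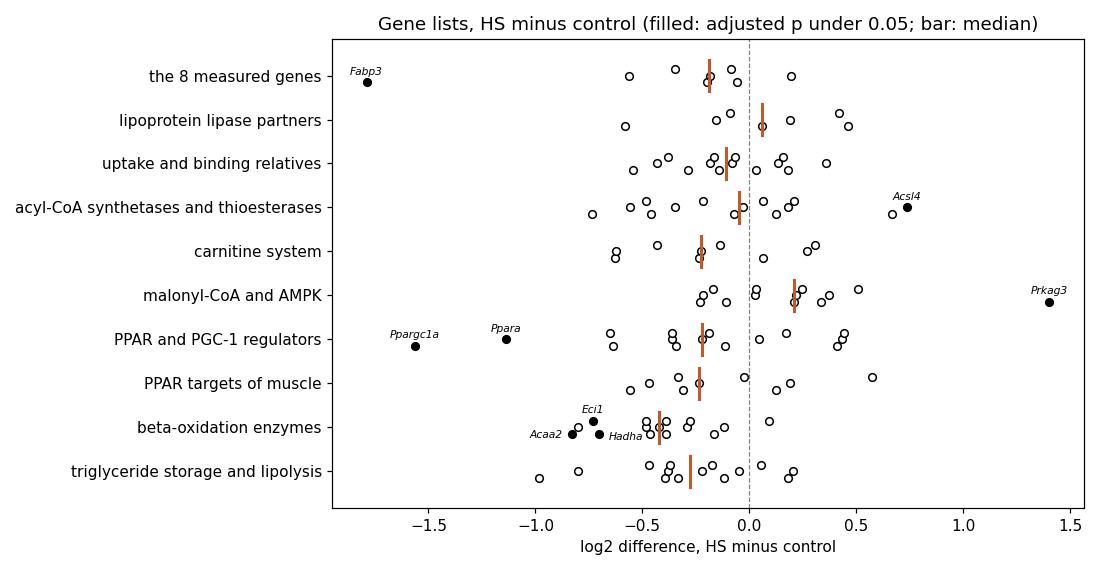
Log2 difference of HS minus control (x axis) for each measured gene of the 8-gene set and of 9 related lists (rows). Points are genes, filled where adjusted p was under 0.05 and then named, and bars are list medians, which ran from -0.42 (beta-oxidation enzymes) to 0.21 (malonyl-CoA and AMPK).

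Of 15 beta-oxidation enzymes, which take over after the carnitine shuttle, 3 fell, Eci1 (-0.73), Acaa2 (-0.83) and Hadha (-0.70). The median was -0.42, and 0.512% of all genes were called lower. None of 14 genes of triglyceride storage and lipolysis passed (median -0.28). Differences were -0.80 for the lipase gene Mgll (adjusted p = 0.0998), -0.98 for G0s2, an inhibitor of the first lipase (adjusted p = 0.188), and -0.39 for Dgat1, which makes triglyceride. G0s2 was at -1.49 without control array 2 (adjusted p = 0.0283) and -0.48 without control array 1. The 7 pathway genes called outside the set (Acsl4, Prkag3, Ppara, Ppargc1a, Eci1, Acaa2 and Hadha) each lost the call without HS array 1 (adjusted p from 0.0967 to 0.203) and without HS array 2 (0.0913 to 0.298). Without either HS+EA array Prkag3 and Ppargc1a kept it (0.0419 to 0.0487) and the other 5 did not (0.0687 to 0.129). Without control array 1 Acsl4 lost it (0.0733), and without control array 2 Acsl4, Eci1, Acaa2 and Hadha did (0.0557 to 0.0704). None of the 7 passed in the fit over every cluster (0.160). Acsl4, Eci1, Acaa2 and Hadha also lost it with no variance trend (0.0851 to 0.106), the replicate block (0.0831 to 0.0975) or the compared groups alone (0.115 to 0.127), Ppara with no variance trend (0.0509) or the groups alone (0.0679), and Hadha with arrays centred on their medians (0.0584) or single-symbol clusters (0.0516).

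In HS+EA minus HS no gene of these lists passed. Cpt1a was at 0.47 ± 0.33, Pdk4 at 0.34, Plin2 at 0.20, Gpihbp1 at 0.18, Ppargc1a at 0.14, Ppara at -0.04, Slc25a20 and Fabp4 at -0.06, Ppard at -0.08, Acaca at -0.12 and Angptl4 at -0.22. Without 1 array Cpt1a ran from 0.09 to 0.85 and Gpihbp1 from 0.08 to 0.28. Those with the smallest p were the mitochondrial acetyl-CoA synthetase gene Acss1 (-0.45, unadjusted p = 0.0260 in limma) and the transcription factor gene Foxo1 (0.42, unadjusted p = 0.0376). In HS+EA minus control Acsl4 lay above 0 (0.63) but was not called. The calls of Prkag3 (1.45), Ppara (-1.17), Ppargc1a (-1.42), Eci1 (-0.91), Acaa2 (-0.89) and Hadha (-0.71) had the same sign there as in HS minus control. The control arrays were shared. Acss1 fell too, with 6.47 and 6.64 on HS+EA arrays, against 7.36 and 7.61 on control arrays (-0.93 ± 0.17, adjusted p = 0.0412). Without HS+EA array 1 or 2 these 7 genes did not pass (adjusted p from 0.0865 to 0.437). Acaa2 and Hadha also lost the call without control array 2 (0.0580 and 0.0602) or either HS array (0.0662 to 0.111), Acss1 without control array 1 (0.0551), control array 2 (0.0860) or HS array 2 (0.0502), and Ppargc1a without HS array 2 (0.0502). With every cluster tested by itself none of the 7 passed (0.130 to 0.182). Acss1, Acaa2 and Hadha also did not with no variance trend (0.0744 to 0.104) or the replicate block (0.0690 to 0.0917), Acaa2 and Hadha with the compared groups alone (0.0676 and 0.112), and Hadha with arrays centred on their medians (0.0520).

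The 5 genes most like Fabp3 over the 6 arrays, by the root mean square difference of signals centred on each gene's own mean, were taken from 13072 other named genes above background. They were the deubiquitinase gene Otud1 (0.19 log2), the nuclear receptor gene Nr4a3 (0.26), Abra (0.29), the transcriptional inhibitor gene Id1 (0.29) and the nicotinamide riboside kinase gene Nmrk2 (0.30). Otud1 had 5.13 and 5.57 on HS+EA arrays, 5.37 and 5.58 on HS arrays, and 7.12 and 7.66 on control arrays, so that like Fabp3 it was higher on control array 2 than on array 1 and low on all 4 suspended arrays. Nr4a3 had 3.43 and 3.16 on HS+EA arrays and 3.65 and 3.49 on HS arrays, near the background of 3.50, against 5.49 and 6.04 on control arrays, so its likeness rests partly on signals near background. No other gene of the set was among the 5.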

How the data were processed

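Per the labels, total RNA of soleus was extracted with Trizol, labelled with biotin and hybridized to Affymetrix ST arrays. Per the submitters' processing notes, signals were computed by RMA in Affymetrix Expression Console. The authors deposited log2 signals for 35556 transcript clusters, which were used as they stood on all 6 arrays. The genome build is not given in the sources used here.

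Clusters listed for 1 symbol (21789) were kept. Those with several symbols (1621) or none (12146) were left out, and the cluster of highest mean was taken per symbol, giving 19938 genes, without a signal filter. The array number limits precision (duplicates, 3 residual degrees of freedom in all).

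Group means were modelled on the 6 arrays together (limma 3.58.1, R 4.3.3), with variances that follow the mean signal and Benjamini-Hochberg adjustment over all genes, at a threshold of 0.05. It was tested on simulated data. The 10 genes and all lists were chosen with earlier results of these data known. Genes outside the set were named by a rule: the called genes of a list up to 4, otherwise up to 3 of smallest p above background, and 11 fixed genes. Alternatives changed the variance prior, signal filter, normalization, cluster choice, samples fitted, replicate block, threshold and arrays. The second Fabp3 cluster, a crossed block and a fit of single-symbol clusters were added after the data were seen. Promoter sequences are RefSeq's (GRCm38.p6).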

Additional observations from a re-analysis of the deposited data

How the results depend on the processing

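Of the 8 measured genes, 1 (Fabp3) was called in HS minus control and in HS+EA minus control. The count was 0 in both with every cluster tested by itself. That fit takes in 35556 clusters and has 3.07 prior degrees of freedom, against 5.88 in the fit reported. With the 21789 single-symbol clusters tested by themselves, chosen after seeing the data, it has 5.76, and the count was 1 in both. It was 0 in HS minus control with only the compared groups fitted. It ran from 0 to 1 in both when an array was left out. It stayed 1 with no variance trend, the filter on signal, 3 other normalizations, the mean of clusters and a threshold of 0.10. In HS+EA minus HS it was 0 throughout. Each fit without an array had 2 residual degrees of freedom.

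Signs turned without an array, over these ranges. In HS minus control they were -0.38 to 0.013 (Cd36), -0.26 to 0.091 (Slc27a1), -0.69 to 0.58 (Ucp3), -1.14 to 0.51 (Pdk4), -0.66 to 1.04 (Angptl4), -0.49 to 0.023 (Slc25a20) and -0.40 to 0.051 (Acaca). In HS+EA minus HS they were -0.12 to 0.029 (Lpl), -0.29 to 0.26 (Cpt2), -0.16 to 0.84 (Pdk4), -0.58 to 0.14 (Angptl4), -0.26 to 0.14 (Slc25a20), -0.093 to 0.020 (Ppara), -0.0024 to 0.28 (Ppargc1a), -0.28 to 0.047 (Acaca) and -0.12 to 0.53 (Plin2). In HS+EA minus control they were -0.21 to 0.14 (Acacb) and -0.14 to 1.12 (Ucp3). Cpt2 in HS+EA minus HS was 0.0020 after quantile normalization again and 0.0023 after cyclic loess, and Ppargc1a was -0.0094 with the mean of clusters. The cause was not tested.

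Replicate numbers are shared between groups, but the labels tie no numbers together. Duplicate differences correlated across genes at -0.16 (HS and control), -0.02 (HS+EA and HS) and 0.02 (HS+EA and control). With the replicate block Fabp3 kept its calls (adjusted p = 0.0277 and 0.0172 in limma) and no other gene of the set gained one. Crossing the HS numbers was chosen after the correlation of -0.16 had been seen. That choice by itself tends to lower the spread, so the calls of the crossed fit are no support. With HS and control alone it gave 378 calls over all genes and 1 of the 8. Mgll and G0s2, not called in the fit reported, passed in that crossed fit (adjusted p = 0.0244 and 0.0258 in limma).

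Over all genes, 209 were called in HS minus control, but 80 with no variance trend, 102 with the block, 68 with the groups alone, 1 with every cluster by itself (192 with single-symbol clusters), and 16 to 301 without an array. For HS+EA minus control 206 were called, but 101, 127, 129 and 1 in those settings, 312 after quantile normalization again, and 2 to 299 without an array. No gene was called in HS+EA minus HS, but 3 with the groups alone or without either control array, and 1 without HS array 2.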

Other observations

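Genes that PPAR receptors induce differed between the duplicate control arrays, as did genes of other lists. Of 9 listed PPAR targets, 6 were higher on array 2 than on array 1 in HS+EA (median 0.21 log2), 1 in HS (median -0.20) and all 9 in control (median 0.78). Over all genes above background the shares were 47.5%, 42.7% and 58.3%. In control the same held for 8 of 8 adipocyte markers (median 1.63), 14 of 15 beta-oxidation enzymes and 11 of 12 endothelial markers. It held for 6 of 11 fast-fibre markers. Pdk4, the kinase that turns off glucose oxidation in fasting, had 11.27 and 11.81 on HS+EA arrays 1 and 2, 11.70 and 10.70 on the HS arrays, and 10.69 and 12.34 on the control arrays. Angptl4, an inhibitor of lipoprotein lipase, had 4.50 and 6.19 on the control arrays, and Cpt1a, the liver-type transferase, had 5.62 and 6.67. Ucp3, at 6.28 and 7.55, had the same order on the control arrays.

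The adipocyte marker Adipoq, the adiponectin gene, had 6.28 and 6.15 on HS+EA arrays 1 and 2, 5.71 and 5.41 on the HS arrays, and 5.10 and 8.09 on the control arrays. Adipoq did not pass in any comparison (HS+EA minus HS 0.65, adjusted p = 1.00 in limma; HS minus control -1.03, 0.629; HS+EA minus control -0.38, 0.904). The cause of the spread between the control arrays was not tested.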
